A study of Mus musculus with 3 samples.

Results

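The genes described are 40 genes of bone morphogenetic protein (BMP) and transforming growth factor beta (TGF-beta) signalling, chosen by symbol from the 23421 genes of the deposited expression table: 7 BMP ligands, 5 TGF-beta and activin ligands, 9 receptors and co-receptors, 5 signal-transducing Smads, 2 inhibitory Smads, 6 extracellular antagonists and modulators, and 6 target genes of the Id and Msx families. The study asked which gene causes the tw18 lethal, a *t* haplotype of Chr 17 with a large deletion that includes *Ppp2r1a*, the gene of a scaffold subunit of protein phosphatase 2A. RNA was sequenced from embryos, by their labels of strain 129/SvEv, at embryonic day (E) 6.5, the offspring of heterozygous parents. There was 1 library for each genotype: WT, with no copy of the tw18 chromosome; tw18/+, with 1 copy; and tw18/tw18, with 2 copies and so, by its label, without any gene of the deletion, of which *Ppp2r1a* is only one. The labels give the tissue as epiblast, while the methods of the study describe the embryo proper, which is the epiblast with the visceral endoderm around it, cut away from the extra-embryonic tissue. The study describes homozygous embryos as slightly behind their littermates in stage, and the genetic backgrounds of the embryos as not inbred. How many embryos were pooled for a library is not given in the sources used here. No difference between genotypes therefore has a replicate check, and the values are described without a test or a p-value.

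Ligands of this family are secreted dimers that bring together type I and type II receptor kinases on the cell surface. BMP receptors phosphorylate Smad1, Smad5 and Smad9, TGF-beta and activin receptors phosphorylate Smad2 and Smad3, and both kinds of Smad enter the nucleus with Smad4. In the gastrulating mouse embryo, BMP4 and BMP8B from the extra-embryonic ectoderm and BMP2 from the visceral endoderm act on the proximal epiblast, where they are needed for primordial germ cells and extra-embryonic mesoderm, and antagonists such as Noggin and Chordin bind BMPs outside the cell.

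Levels are given as FPKM, the fragments per kilobase of transcript relative to all mapped fragments of the library, so that genes of different length can be compared within a library. *Ppp2r1a* (Chr 17: 20945311-20965916, GRCm38) had an FPKM of 146 in WT, 81.7 in tw18/+ and 12.8 in tw18/tw18. The order is that of the labels, but the deleted gene was not absent from the library labelled tw18/tw18: about 595 fragments remained, 0.0872 times the WT level, where 3 fragments would give 0.0644 FPKM. From which cells or sequences this signal came was not tested, and it bears on every tw18/tw18 value given here. The spacing of low values put the depth of both mutant libraries at 1.38 and 1.37 times that of WT, with 85.3% to 87.5% of the low values used within 0.2 of a whole number of fragments. Fragment numbers given here are thus approximate, and intervals made from them are exact binomial 95% intervals that cover counting error only. A gene was called higher or lower when its FPKM values differed 2-fold or more, a log2 ratio of 1 with no pseudocount, and the higher of them was at least 1 FPKM. An exact 0 can be a failed estimate, and a gene at 0 is given as listed at 0.

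Between tw18/tw18 and WT, 15 of the 40 genes were called higher in tw18/tw18 and 0 lower, with 35 having a value of at least 1 FPKM in the pair. Over the table, 15.1% of the genes that passed this minimum were called higher and 6.94% lower. The count of 0 lower depends on the minimum. Without it, 15 were higher and 3 lower (*Bmp5*, *Bmpr1b* and *Msx1*), against 24.2% and 10.8% of all genes with a value above 0. Between tw18/tw18 and tw18/+, 15 of the 40 were called higher and 1 lower, again with 35 past the minimum, where 14.9% and 5.65% of the genes of the table were called. Both comparisons use the same tw18/tw18 library, so the counts are not independent of each other. Of the genes called higher against WT, *Bmp6*, *Bmp8b*, *Tgfb3*, *Acvrl1* and *Nog* passed the minimum only through tw18/tw18. Against tw18/+ this was so for *Bmp6*, *Bmp7*, *Bmp8a*, *Tgfb3* and *Acvrl1*. On the scale of log2(FPKM + 1), the 40 genes had a median difference of 0.44 against WT and 0.56 against tw18/+, while all genes of the table had a median of 0 in both. That 0 takes in 6573 and 6217 genes with equal values in the pair. At a mean of 1 to 5 FPKM over the libraries, all genes had medians of 0.211 and 0.23, and members 0.835 and 1.04. At 5 FPKM or more, all genes had -0.0854 and -0.0963, and members 0.375 and 0.249. This scale understates the differences of low genes.

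**Figure D1:**
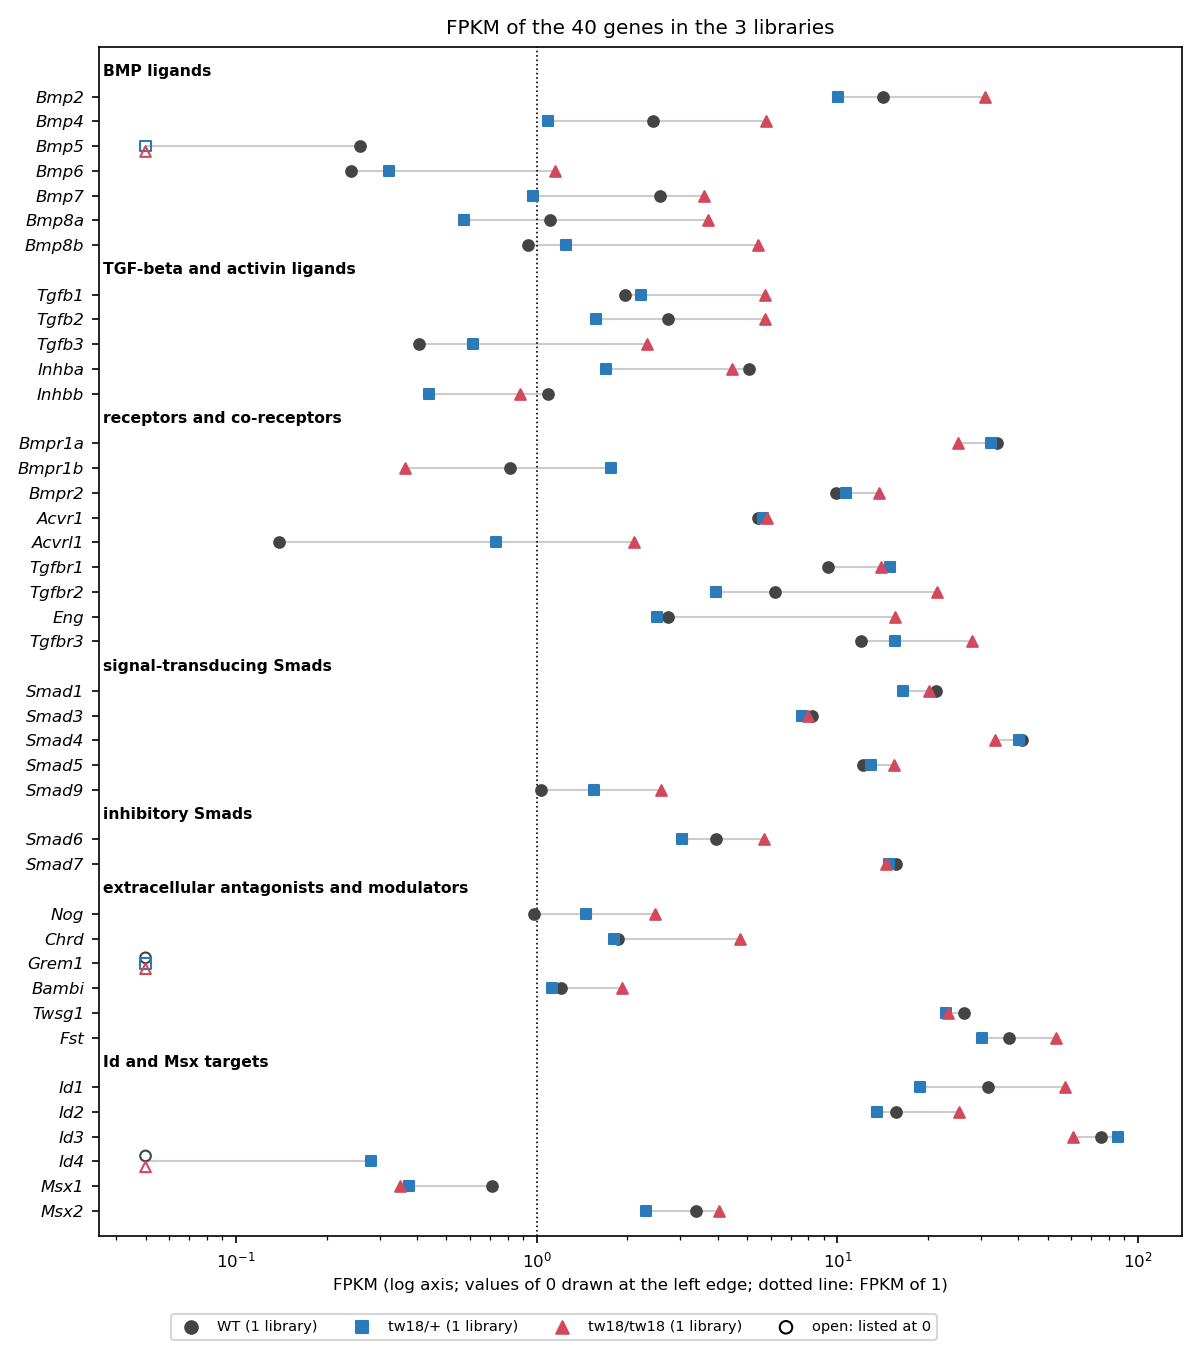
FPKM (log axis) of the 40 genes by role, with 1 point for each library; open symbols at the left edge are genes listed at 0 and the dotted line marks 1 FPKM. The tw18/tw18 point lies to the right of the others for most ligands, whereas the points of *Smad3*, *Smad7* and *Acvr1* lie close together.

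The levels covered a wide range. *Id3* had the highest FPKM of the 40 genes in each of the 3 libraries, and *Grem1*, which encodes the BMP antagonist Gremlin, was listed at 0 in each. At least 1 FPKM was measured for 30 of the 40 genes in WT, 30 in tw18/+ and 34 in tw18/tw18. Of the 36 genes that reached it in at least 1 library, 25 were highest in tw18/tw18 (69.4%), against 41% of all genes with that level, and 19 were lowest in tw18/+ (52.8%), against 28.5%. *Bmp6*, *Tgfb3* and *Acvrl1* reached 1 FPKM only in tw18/tw18, so they were bound to be highest there. The same holds for any gene of the table that entered in this way.

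Promoter windows were taken from RefSeq for GRCm38.p6, from 250 bases before to 50 bases after each start, and 29 of the 40 genes had at least 1 window, 34 windows in all. They were searched on both strands for GGCGCC, a BMP Smad element, GTCTAGAC, a palindromic Smad element, CAGACA, a shorter Smad element, and CACGTG, an E-box of the kind to which basic helix-loop-helix factors bind. GGCGCC was present in 10 of the 34 windows (29.4%), from *Bmpr1a*, *Bmpr2*, *Chrd*, *Grem1*, *Id2*, *Id4*, *Smad5*, *Smad9* and *Tgfbr1*, and in 11.9% of all 32851 windows of the table. Of these 9 genes, *Chrd* and *Smad9* were called higher in tw18/tw18 than in WT and the others were not. CAGACA was in 6 windows (17.6%), against 21% of all, and CACGTG in 3 windows (8.82%), from *Bmp4*, *Bmp6* and *Tgfb2*, against 7.15% of all. A match is a description of the letters in the window and not a site shown to be bound.

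Of the 7 BMP ligands, 5 were called higher in tw18/tw18 against WT and 6 against tw18/+, where 15.1% and 14.9% of all genes past the minimum were. Their summed FPKM was 21.67 in WT, 14.23 in tw18/+ and 50.65 in tw18/tw18, and *Bmp2* gave most of it in each library. *Bmp2*, the ligand made by visceral endoderm, had an FPKM of 14.1 in WT (about 723 fragments), 10.02 in tw18/+ (708) and 31.0 in tw18/tw18 (2175). The tw18/tw18 value stood above both others, by a log2 ratio of 1.13 against WT (counting interval 1.01 to 1.25) and 1.63 against tw18/+. *Bmp4*, the ligand of the extra-embryonic ectoderm, was at 2.43, 1.09 and 5.78 FPKM in WT, tw18/+ and tw18/tw18, from about 70, 43 and 228 fragments. The log2 ratio of *Bmp4* was 1.25 against WT (0.85 to 1.65) and 2.40 against tw18/+ (1.94 to 2.92), so the counting interval against WT reached below the 2-fold line. The 250 bases before the *Bmp4* start (chr14:46390670-46390919, minus strand, GRCm38.p6) are shown because *Bmp4* differed in every pair of libraries and its window holds an E-box, in capitals, which begins 188 bases before the start.
Bmp4: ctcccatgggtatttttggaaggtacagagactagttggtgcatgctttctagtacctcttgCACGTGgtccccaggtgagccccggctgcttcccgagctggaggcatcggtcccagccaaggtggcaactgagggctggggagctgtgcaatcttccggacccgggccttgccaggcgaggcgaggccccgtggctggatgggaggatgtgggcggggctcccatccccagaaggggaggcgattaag

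*Bmp8a* (Chr 4: 123312645-123343252, GRCm38) and *Bmp8b* (Chr 4: 123105165-123132099), whose products act with BMP4, had the largest log2 ratios among the 7 BMP ligands. This was against tw18/+ for *Bmp8a* and against WT for *Bmp8b*. *Bmp8a* had 1.10 FPKM in WT, 0.571 in tw18/+ and 3.71 in tw18/tw18, and *Bmp8b* had 0.936, 1.25 and 5.43. Both were highest in tw18/tw18, with log2 ratios against WT of 1.75 (1.25 to 2.32) for *Bmp8a* and 2.54 (2.06 to 3.06) for *Bmp8b*, and against tw18/+ of 2.70 and 2.12. Fragments of this pair cannot always be told apart: their coding sequences, of 1239 and 1200 bases, were identical at 1056 of 1200 aligned bases (88%), and 17.6% and 18.2% of their coding words of 50 bases occur in the other gene. The longest identical run, 182 bases from coding position 451 to 632 in both (GENCODE M21 transcripts), is shown because reads that fall in it match both genes equally.
Bmp8a and Bmp8b: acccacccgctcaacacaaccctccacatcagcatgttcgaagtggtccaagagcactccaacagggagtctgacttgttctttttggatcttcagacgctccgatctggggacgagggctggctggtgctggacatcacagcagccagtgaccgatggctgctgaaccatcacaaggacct

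The sum of *Bmp8a* and *Bmp8b*, which depends little on how such fragments were divided, was 2.04 FPKM in WT, 1.82 in tw18/+ and 9.14 in tw18/tw18. Of all 50-base words of *Bmp8b*, 10.3% occur in other genes, and the gene that shares the most lies on the opposite strand. The sum does not remove that overlap. *Bmp6* was a low gene, with 0.240, 0.323 and 1.15 FPKM and about 12, 23 and 81 fragments. It passed the minimum only through tw18/tw18, with a log2 ratio of 2.25 against WT (1.42 to 3.31) and 1.83 against tw18/+. For *Bmp6*, 4.55% of the 50-base words occur in other genes, and it too overlaps an opposite-strand gene. *Bmp7*, which is made in several embryonic epithelia, had 2.57, 0.975 and 3.61 FPKM. It was called higher against tw18/+ (log2 ratio 1.89) and not against WT (0.49). *Bmp5* had 0.258 FPKM in WT, from about 14 fragments, and was listed at 0 in tw18/+ and tw18/tw18, and 46% of its 50-base words lie in a gene annotated on the opposite strand.

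All 3 TGF-beta genes were called higher in tw18/tw18 in both comparisons, while the activin genes did not share this order. Over all genes past the minimum, 15.1% were called higher against WT and 14.9% against tw18/+. *Tgfb1*, which encodes a TGF-beta made by blood and endothelial cells among others, was at 1.97 FPKM in WT, 2.23 in tw18/+ and 5.75 in tw18/tw18, from about 60, 94 and 240 fragments. WT and tw18/+ lay close together, and the log2 ratio of tw18/tw18 was 1.55 against WT (1.13 to 1.98) and 1.37 against tw18/+. *Tgfb2*, a ligand needed for heart and skeletal development, had 2.73, 1.58 and 5.73 FPKM, with log2 ratios of 1.07 (0.84 to 1.31) and 1.86. For *Tgfb3*, known for its part in palate fusion, the values were 0.406, 0.613 and 2.33 FPKM and about 20, 41 and 155 fragments, so that it was under 1 FPKM in WT and tw18/+. The *Tgfb3* log2 ratio was 2.52 against WT (1.82 to 3.25) and 1.92 against tw18/+. Of its 50-base words, 8.79% are shared with an opposite-strand gene, and the strand setting used for counting is not given in the sources used here.

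*Inhba* and *Inhbb* encode the subunits of activin A and activin B, dimers that also signal through Smad3. *Inhba* (Chr 13: 16011851-16031621, GRCm38) had 5.07 FPKM in WT, 1.70 in tw18/+ and 4.47 in tw18/tw18, so that the tw18/+ library stood apart from both others. The log2 ratio was -0.18 between tw18/tw18 and WT and 1.40 between tw18/tw18 and tw18/+. *Inhbb* was low, with 1.09, 0.439 and 0.882 FPKM. It was lowest in tw18/+ as well, and both its tw18/+ and tw18/tw18 values were under 1 FPKM.

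Among the 9 receptors and co-receptors, the 4 called higher in tw18/tw18 than in WT were *Acvrl1*, *Eng*, *Tgfbr2* and *Tgfbr3*, and 0 were called lower. Of all genes past the minimum, 15.1% were called higher and 6.94% lower. *Eng*, which encodes Endoglin, a co-receptor abundant on endothelium (Chr 2: 32646595-32682669, GRCm38), had 2.72 FPKM in WT (about 134 fragments), 2.51 in tw18/+ (170) and 15.6 in tw18/tw18 (1052). WT and tw18/+ were nearly level, with a log2 ratio of -0.12 between them, and tw18/tw18 was higher by 2.52 against WT (2.25 to 2.79) and 2.64 against tw18/+. The sequence before the *Eng* start (chr2:32646345-32646594, plus strand, GRCm38.p6) is printed as the upstream window of a member with one of the widest differences, and none of the 4 motifs searched lies in it.
Eng: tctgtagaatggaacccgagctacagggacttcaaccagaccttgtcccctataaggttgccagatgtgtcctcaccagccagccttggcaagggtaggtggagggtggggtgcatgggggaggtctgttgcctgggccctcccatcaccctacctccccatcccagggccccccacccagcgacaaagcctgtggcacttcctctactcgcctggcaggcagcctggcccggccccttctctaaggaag

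*Acvrl1* encodes ALK1, a type I receptor of endothelial cells for BMP9 and BMP10 that works with Endoglin. Its level was 0.139 FPKM in WT, 0.734 in tw18/+ and 2.10 in tw18/tw18, from about 7, 53 and 151 fragments. The values rank in the order of tw18 copies, but the WT value rests on few fragments, and the interval of the log2 ratio of 3.91 against WT ran from 2.90 to 5.31. Against tw18/+ the log2 ratio was 1.52. *Tgfbr2*, the type II receptor for TGF-beta (Chr 9: 116084293-116175360, GRCm38), was far better covered, with 6.21, 3.96 and 21.4 FPKM and about 740, 653 and 3501 fragments. The log2 ratio of *Tgfbr2* was 1.78 against WT (1.67 to 1.90) and 2.43 against tw18/+ (2.31 to 2.55). *Tgfbr3*, which encodes betaglycan, a co-receptor that presents TGF-beta2, was at 12.0, 15.5 and 28.1 FPKM. The difference passed 2-fold against WT (log2 ratio 1.23) and not against tw18/+ (0.86).

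*Bmpr1b*, a type I BMP receptor, was the only one of the 40 genes called lower in tw18/tw18 against tw18/+, and the only one called higher in tw18/+ against WT. Its FPKM was 0.814 in WT, 1.77 in tw18/+ and 0.364 in tw18/tw18, from about 64, 191 and 39 fragments, so only tw18/+ passed 1 FPKM. Between tw18/tw18 and WT its log2 ratio was -1.16 (-1.8 to -0.58), not called because both values were under 1 FPKM. The other type I receptor for BMP2 and BMP4, *Bmpr1a*, was the highest receptor in WT and tw18/+, with 33.9, 32.4 and 25.1 FPKM and a log2 ratio of -0.43 between tw18/tw18 and WT. The other receptors moved less than 2-fold in each pair. *Bmpr2*, the type II BMP receptor, had 9.88, 10.7 and 13.7 FPKM. *Acvr1*, which encodes the type I receptor ALK2, was nearly flat at 5.43, 5.64 and 5.83 FPKM, and the counting intervals of its log2 ratios included 0 in each pair. *Tgfbr1*, the type I TGF-beta receptor, had 9.32, 14.9 and 13.9 FPKM. Its partner *Tgfbr2* differed most between tw18/+ and tw18/tw18, where *Tgfbr1* differed little (log2 ratio -0.10).

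**Figure D2:**
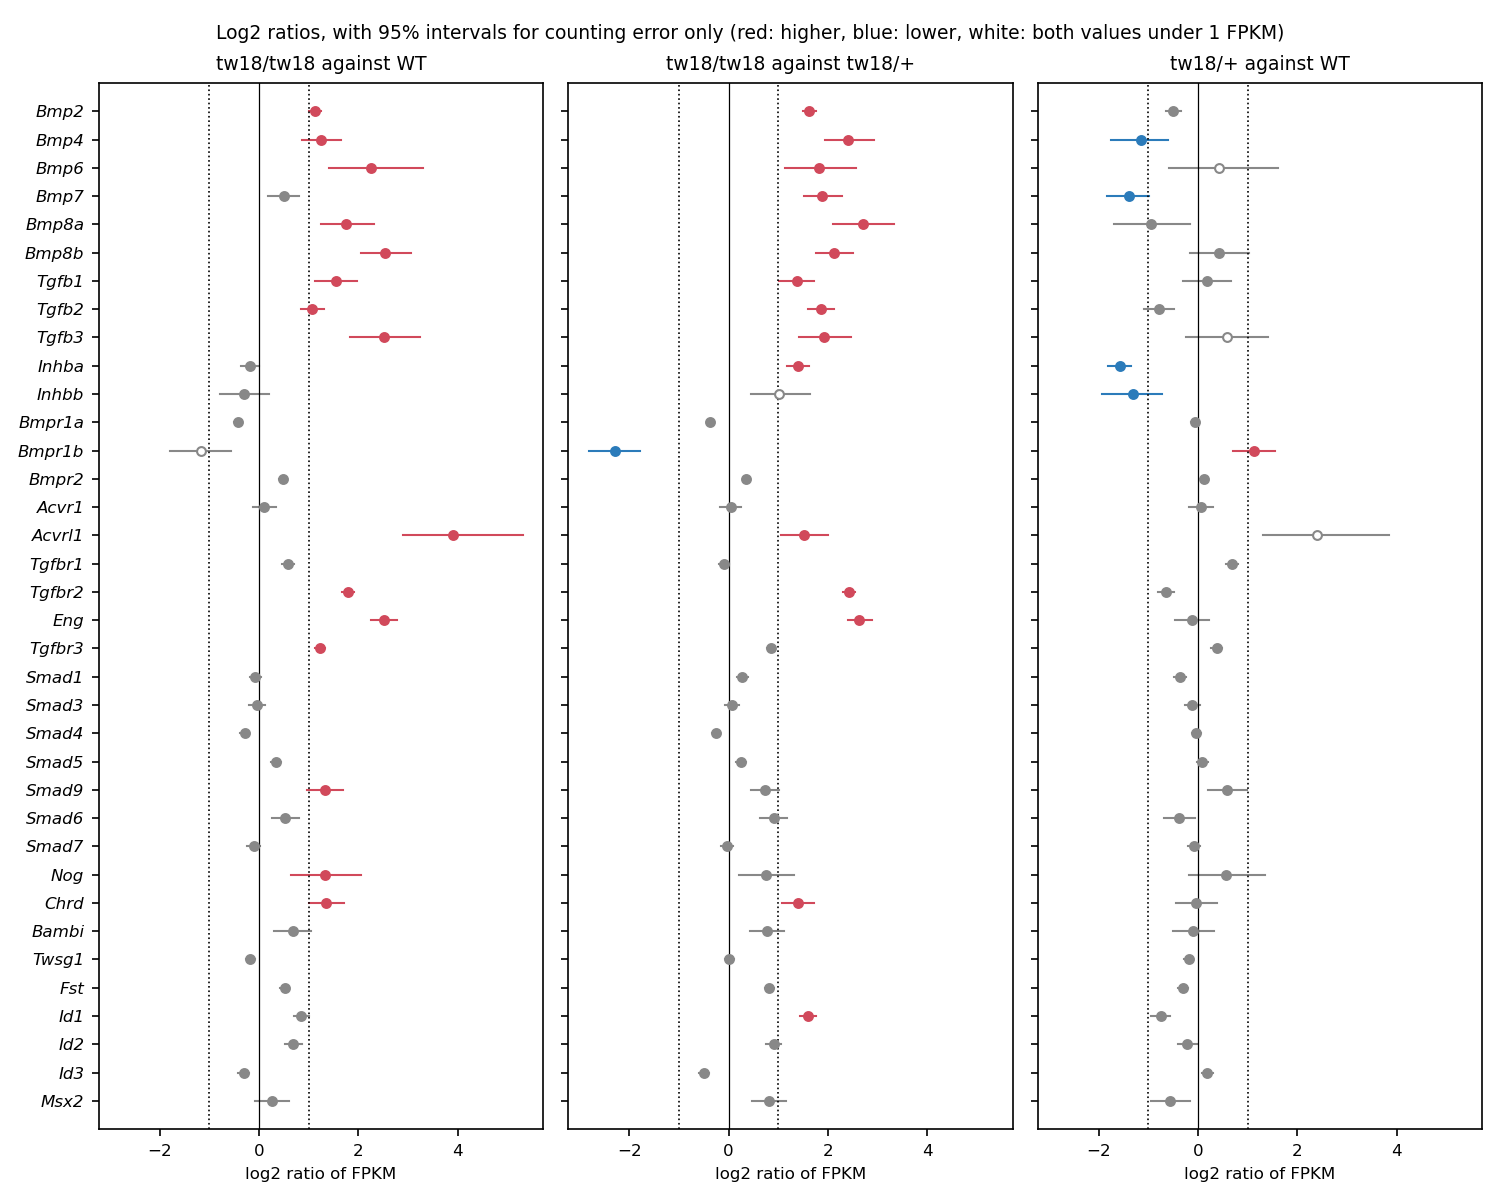
Log2 ratios of FPKM for the members with at least 1 FPKM in some library, in each pair, with 95% intervals for counting error only; filled red and blue points are 2-fold or more higher or lower, grey ones are not, white ones have both values under 1 FPKM, and dotted lines mark 2-fold. The panels that compare tw18/tw18 have 15 red points against WT and 15 against tw18/+, most of them on ligand, receptor and co-receptor lines. The others are *Smad9*, *Nog* and *Chrd* against WT and *Chrd* and *Id1* against tw18/+. *Bmp7*, *Inhba* and *Inhbb* are grey against WT, and *Tgfbr3* is grey against tw18/+. The panel of tw18/+ against WT has 1 red and 4 blue points.

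The Smads that carry the signal were close to level in the 3 libraries, apart from *Smad9*. Their summed FPKM was 83.69 in WT, 78.8 in tw18/+ and 79.55 in tw18/tw18. *Smad4*, the partner shared by both branches, was the highest of them, with 41.0, 40.1 and 33.5 FPKM. *Smad1* and *Smad5*, which transduce BMP signals, had 21.2, 16.6 and 20.1 FPKM and 12.2, 12.9 and 15.4 FPKM, and *Smad3*, of the TGF-beta and activin branch, had 8.25, 7.61 and 8.0. The log2 ratios of these 4 genes between tw18/tw18 and WT ran from -0.29 for *Smad4* to 0.34 for *Smad5*. Those of *Smad1* and *Smad3*, at -0.08 and -0.04, changed sign when the libraries were scaled to equal FPKM sums.

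*Smad9*, the third BMP Smad and the lowest of the 5 in each library, was at 1.04 FPKM in WT, 1.55 in tw18/+ and 2.59 in tw18/tw18, from about 81, 168 and 278 fragments. The order followed the number of tw18 copies, with a log2 ratio of 1.32 against WT (0.96 to 1.70) and 0.74 against tw18/+. Its upstream window (chr3:54755332-54755581, plus strand, GRCm38.p6) is shown as that of the only Smad called higher, with GGCGCC in capitals, which begins 51 bases before the start.
Smad9: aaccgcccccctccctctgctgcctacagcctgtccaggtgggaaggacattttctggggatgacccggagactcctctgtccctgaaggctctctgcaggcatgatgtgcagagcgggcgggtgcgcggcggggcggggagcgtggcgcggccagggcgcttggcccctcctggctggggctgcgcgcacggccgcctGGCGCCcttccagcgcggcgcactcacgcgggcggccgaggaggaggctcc

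The inhibitory Smads are themselves induced by the pathway and block it inside the cell. *Smad6*, which acts mainly on BMP signals, had 3.95 FPKM in WT, 3.04 in tw18/+ and 5.70 in tw18/tw18, with log2 ratios of 0.53 and 0.91 against WT and tw18/+. *Smad7*, which acts on both branches, was flat, at 15.7, 14.8 and 14.5 FPKM. Neither gene was called in any pair, and the log2 ratio of *Smad7* between tw18/tw18 and WT, -0.11, changed sign on equal FPKM sums. *Smad6* had the only window among those of the 40 genes with GTCTAGAC, a motif found in 0.213% of all windows. The 30 bases around it (chr9:64022045-64022074, minus strand, GRCm38.p6) carry the motif in capitals, which begins 4 bases before the start and runs across it.
Smad6: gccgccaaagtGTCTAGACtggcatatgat

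Of the extracellular antagonists, *Chrd* and *Nog* were called higher in tw18/tw18 than in WT, and only *Chrd* against tw18/+ as well. *Chrd*, which encodes Chordin, had 1.86 FPKM in WT, 1.80 in tw18/+ and 4.75 in tw18/tw18, from about 87, 117 and 306 fragments. The counting interval of the ratio between tw18/+ and WT included equal levels, and the log2 ratio of tw18/tw18 was 1.35 against WT (1.01 to 1.72) and 1.40 against tw18/+ (1.08 to 1.72). *Nog*, which encodes Noggin, had 0.980, 1.46 and 2.47 FPKM from about 23, 47 and 79 fragments, and its log2 ratio of 1.33 against WT had the wide interval of 0.64 to 2.06. Against tw18/+ it was 0.76.

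*Fst* encodes Follistatin, which binds activins, and was the highest of the antagonists at 37.3, 30.2 and 53.5 FPKM. Its log2 ratio stayed under 1, at 0.52 against WT and 0.82 against tw18/+. *Bambi*, a receptor-like protein without a kinase that damps the pathway, was at 1.21, 1.12 and 1.92 FPKM. *Twsg1*, whose product binds BMPs together with Chordin, had 26.3, 23.0 and 23.3 FPKM. It is the only one of the 40 genes on Chr 17 (65921972-65951226, GRCm38) and lies distal to *Ppp2r1a*, and its log2 ratio between tw18/tw18 and WT was -0.18.

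The Id genes, which encode inhibitors of basic helix-loop-helix factors and are direct targets of BMP Smads, did not move together. *Id1* (Chr 2: 152736251-152737410, GRCm38) had 31.8 FPKM in WT, 18.8 in tw18/+ and 57.2 in tw18/tw18, and *Id2* had 15.7, 13.5 and 25.4. *Id3* had the opposite order, with 75.1, 85.8 and 60.6 FPKM. *Id1* thus stood at 0.423 of the *Id3* level in WT, 0.22 in tw18/+ and 0.943 in tw18/tw18. The log2 ratios against WT were 0.85 for *Id1*, 0.69 for *Id2* and -0.31 for *Id3*, none of them past 2-fold. Against tw18/+ they were 1.60, 0.91 and -0.50, so that *Id1* was the only called target in that pair. *Id1* passed 2-fold against WT on equal FPKM sums (1.06). *Id4* was listed at 0 in WT and tw18/tw18 and had 0.281 FPKM in tw18/+. The homeobox gene *Msx2* was at 3.38, 2.30 and 4.05 FPKM and was called in no pair, and *Msx1* was under 1 FPKM in each library, at most 0.713.

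Between tw18/+ and WT, 1 of the 40 genes was called higher and 4 lower, with 33 past the minimum. Over all genes, 4.7% were called higher and 5.02% lower in this pair. The 4 lower genes were all ligands, *Bmp4* (log2 ratio -1.16, interval -1.75 to -0.60), *Bmp7* (-1.40, -1.84 to -0.98), *Inhba* (-1.58, -1.81 to -1.34) and *Inhbb* (-1.31, -1.94 to -0.72). *Inhba* alone had a counting interval that lay wholly past 2-fold. Each of the 4 had its lowest value in tw18/+ and not in tw18/tw18, so their levels did not follow the number of tw18 copies. The 40 genes had a median difference of -0.07 on the scale of log2(FPKM + 1), and all genes 0.

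The calls were read against genes of similar level, with bins chosen after the values were seen. The mean that sets the bin includes tw18/tw18, so a gene high there can enter a bin through that library. *Eng* (2.72, 2.51 and 15.6 FPKM) entered the upper bin in this way, and *Tgfb3* (0.406, 0.613 and 2.33) the lower one. The shares by bin are therefore a description and not separate evidence that tw18/tw18 was higher. Of the 40 genes, 14 had a mean of 1 to 5 FPKM over the libraries, and 9 of them (64.3%) were called higher in tw18/tw18 than in WT, where 26.7% of all genes in that bin were. The 9 were *Bmp4*, *Bmp8a*, *Bmp8b*, *Tgfb1*, *Tgfb2*, *Tgfb3*, *Smad9*, *Nog* and *Chrd*. Of the 18 members with a mean of 5 FPKM or more, *Bmp2*, *Tgfbr2*, *Eng* and *Tgfbr3* were called higher (22.2%), against 6.39% of all genes of that level. In neither bin was a member called lower, where 11.3% and 3.44% of all genes were. Against tw18/+ the numbers were 9 of 14 and 4 of 18, against 25.8% and 6.73% of all genes, with 0 lower in both bins, against 9.64% and 2.87%. In the lower bin 23.1% of the members past the minimum were called lower in tw18/+ than in WT, against 10.2% of all genes, and 0 higher, against 10.2%. No member with a mean of 5 FPKM or more was called between tw18/+ and WT, where 0.898% and 1.13% of all genes of that level were called higher and lower.

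**Figure D3:**
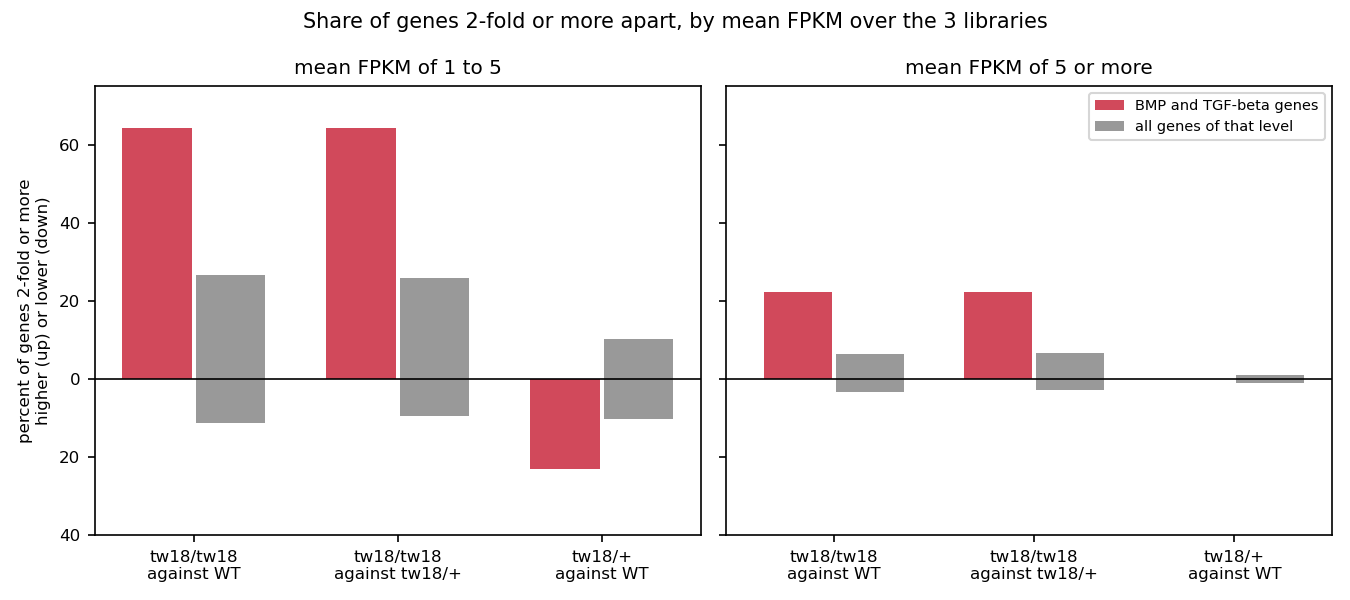
Percent of genes 2-fold or more higher (upward) or lower (downward) in each pair, for the BMP and TGF-beta genes (red) and all genes of the same mean FPKM (grey). In both bins the red upward bars of tw18/tw18 exceed the grey ones, at 64.3% against 26.7% and 22.2% against 6.39% for WT. The mean includes tw18/tw18, so some genes entered a bin through that library.

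A further 96 genes of the pathway were grouped by role, of which 67 passed the minimum between tw18/tw18 and WT, 19 being called higher (28.4%) and 9 lower (13.4%), against 15.1% and 6.94% of all genes. The called genes differed between roles in direction. Of 19 other reported targets, 14 passed the minimum, and 9 were higher and 0 lower: *Tgfbi*, *Gata3*, *Cdkn1a*, *Hand1*, *Atoh8*, *Snai2*, *Gata2*, *Hand2* and *Tbx3*. From these same libraries the study named these Gata and Hand genes, *Bmp2*, *Eng* and *Cer1* as higher in the mutant, and *Tdgf1* and *Lefty2* as lower. It found no apparent change of *Id1*, *Id3*, *Smad6* and *Smad7*. The values given here for all these genes are thus not independent of the study. *Gata3*, a transcription factor of trophoblast and extra-embryonic mesoderm, had 1.89 FPKM in WT, 3.45 in tw18/+ and 10.8 in tw18/tw18, and *Hand1*, of the same tissues, had 9.31, 14.0 and 34.6. *Tgfbi*, a matrix protein induced by TGF-beta, had 2.79, 5.83 and 18.5 FPKM, and *Cdkn1a*, which encodes the cell cycle inhibitor p21 and is also a p53 target, had 5.88, 7.11 and 27.3. All 4 were highest in tw18/tw18, as were *Id1* and *Id2*, but not *Id3*.

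The other ligands included genes with the opposite sign. *Gdf1*, a partner of Nodal, had 9.99 FPKM in WT, 5.34 in tw18/+ and 1.04 in tw18/tw18, and *Lefty2*, a Nodal antagonist and target, had 7.5, 4.0 and 0.784. Both were lower in tw18/tw18 by a log2 ratio of -3.26 against WT, and *Lefty1* was lower by -1.12. Among 8 other receptors only the Nodal co-receptor *Tdgf1* was called, with 74.5, 72.0 and 19.2 FPKM. *Gdf9* was at 1.20 FPKM in WT and listed at 0 in tw18/tw18, whereas *Gdf11* and *Inhbc* were higher at no more than 1.64 FPKM.

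Of 15 other antagonists, *Dcn*, *Bgn*, *Cer1*, *Nbl1* and *Bmper* were higher in tw18/tw18 than in WT, and *Htra1* and *Chrdl1* lower. *Dcn* and *Bgn* encode proteoglycans of connective tissue that bind TGF-beta, and had 4.0, 3.15 and 17.8 FPKM and 19.9, 22.3 and 69.9 FPKM. *Cer1*, of the anterior visceral endoderm, had 46.6, 61.3 and 140 FPKM. Of 14 proteases and latency proteins, *Thbs1* (1.29, 1.0 and 4.13 FPKM) and *Lrrc32* (0.664, 0.394 and 1.64), both of which take part in the release or display of latent TGF-beta, were higher. The convertase *Pcsk6* was lower, with 5.04, 3.16 and 2.32 FPKM and a log2 ratio of -1.12 against WT. The study, from these same libraries, reported *Pcsk6* as not affected, so the 2 readings differ. Of 20 intracellular regulators, *Zeb2* was higher and *Zfyve9* lower. Between tw18/tw18 and tw18/+ the 96 genes gave 27 calls higher (40.3% of those past the minimum, against 14.9% of all genes) and 4 lower (5.97%, against 5.65%). Between tw18/+ and WT they gave 3 higher (4.62%, against 4.7%) and 7 lower (10.8%, against 5.02%). The 7 included *Bmp1*, a protease that cuts Chordin (8.85, 3.84 and 13.0 FPKM), *Pcsk5* (22.2, 6.57 and 25.5) and *Htra1* (46.8, 9.72 and 22.1), which, like *Inhba*, were lowest in tw18/+.

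**Figure D4:**
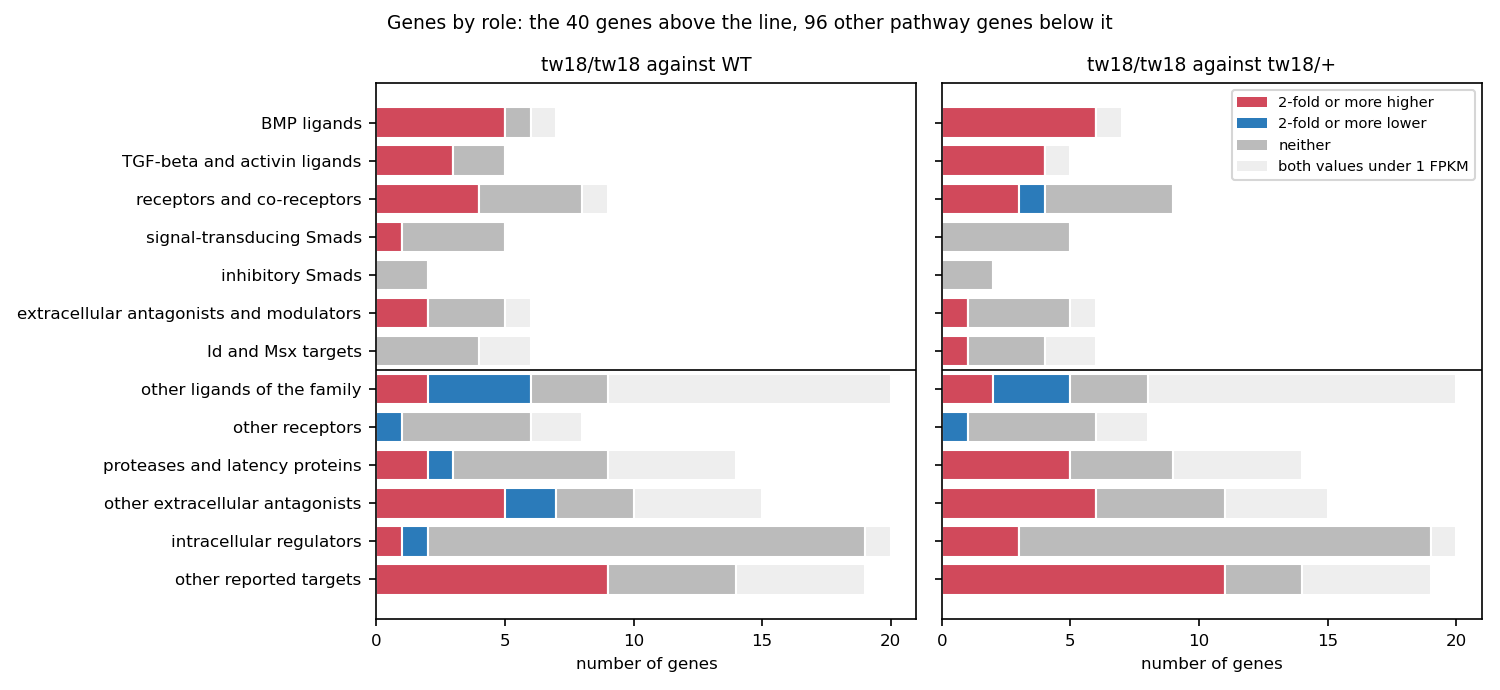
Number of genes of each role that were 2-fold or more higher (red), lower (blue), neither (dark grey) or under 1 FPKM in both libraries (light grey), for tw18/tw18 against WT and against tw18/+. Above the line are the 40 genes, with 5 of 7 BMP ligands and 0 of 2 inhibitory Smads higher against WT, and below it 96 other genes of the pathway. Of all genes past the minimum, 15.1% were higher against WT.

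Marker lists of other tissues differed between the libraries along with these genes. For tw18/tw18 against WT, 15.1% of all genes past the minimum were called higher and 6.94% lower. Against tw18/+ the shares were 14.9% and 5.65%. The list sizes given below include markers under the minimum. In bulk RNA, fewer cells of a type and less RNA per cell cannot be told apart. The summed FPKM of 12 epiblast markers was 2049 in WT, 2209 in tw18/+ and 1167 in tw18/tw18, so the labelled tissue was present in each library, and 4 of the 12 were called lower in tw18/tw18 than in WT. That of 13 visceral endoderm markers was 1017, 970.5 and 1393. Of 11 endothelial markers, 6 were called higher in tw18/tw18 than in WT and 9 against tw18/+, with sums of 45.65, 31.84 and 101.9. Like *Tgfbr2*, the summed list was lowest in tw18/+ and highest in tw18/tw18. That order was common, with 2549 of the 13118 genes at 1 FPKM or more in some library. The marker *Icam2* was listed at 0 in WT and tw18/+. Single markers differed between tw18/+ and WT, with *Pecam1* and *Kdr* called lower and *Tek* and *Emcn* higher. *Tek* (0.280, 1.04 and 3.25 FPKM) and *Emcn* (2.48, 4.97 and 11.9) were lowest in WT, as was *Acvrl1*, while *Eng* was nearly level in WT and tw18/+. Of 9 markers of mesenchyme and smooth muscle, 7 were higher in both comparisons, with sums of 69.31, 68.57 and 303.5 and none at 0. Of 11 blood and immune markers, 5 were higher against WT, with sums of 22.61, 16.26 and 86.34. The adult beta-globin gene *Hbb-bs* had 0.018, 0.555 and 47.6 FPKM, and without it the sums were 22.59, 15.7 and 38.76. *C1qa* and *Nkg7* were listed at 0 in WT. Their part in the values of the ligands and receptors was not tested.

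Extra-embryonic ectoderm, the known source of BMP4 and BMP8B, had 5 of its 8 markers called higher in tw18/tw18 than in WT. Of all genes past the minimum, 15.1% were. *Elf5* was at 1.93 FPKM in WT, 1.42 in tw18/+ and 4.85 in tw18/tw18, *Esrrb* at 1.19, 0.939 and 3.91, and *Cdx2* at 0.473, 0.677 and 1.19. *Elf5*, *Esrrb*, *Tfap2c*, *Sox21*, *Tead4* and *Ets2* had tw18/+ lowest and tw18/tw18 highest, as *Bmp4* had. *Cdx2* was lowest in WT and *Eomes* in tw18/tw18, and none of the 8 markers was listed at 0. The order of *Bmp4* was a common one, held by 2549 of 13118 genes and 14 of 36 members with at least 1 FPKM in some library. Between tw18/+ and WT, the counting intervals of *Elf5* and *Esrrb* included equal levels, while *Bmp4* was called lower. *Bmp8b* had another order, with WT lowest (0.936, 1.25 and 5.43 FPKM). The summed level of the list was nevertheless 106.2, 83.99 and 97.15, because *Eomes*, which the primitive streak also expresses, had the highest level of the list in each library and was lower in tw18/tw18 than in WT. Of 11 decidual stroma markers, 6 were called higher (all genes 15.1%) and 1 lower (6.94%) in tw18/tw18 than in WT. Against tw18/+, 9 were called higher (14.9%). The higher ones included *Des* (45.5, 65.9 and 201 FPKM), *Hoxa11* (3.67, 6.87 and 30.8) and *Wnt4* (1.69, 3.32 and 11.2). The summed level was 1697 FPKM in WT, 324.6 in tw18/+ and 902 in tw18/tw18, but the prolactin gene *Prl8a2* had 1504, 155 and 377 of it, and the other 10 genes summed to 193, 169.6 and 524.7. *Prl8a2* was lowest in tw18/+, as were *Inhba*, *Bmp7*, *Bmp4* and *Inhbb*. *Vim*, *Pgr* and *Cryab* of the decidual list were lowest in tw18/+ too, but highest in tw18/tw18. *Des*, *Hoxa10*, *Hoxa11*, *Wnt4* and *Esr1* were lowest in WT and highest in tw18/tw18. *Il11ra1* was level in WT and tw18/+ and highest in tw18/tw18, and *Igfbp1*, at 0.476 FPKM in WT, was listed at 0 in tw18/tw18. What part the marker lists have in these differences was not tested.

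**Figure D5:**
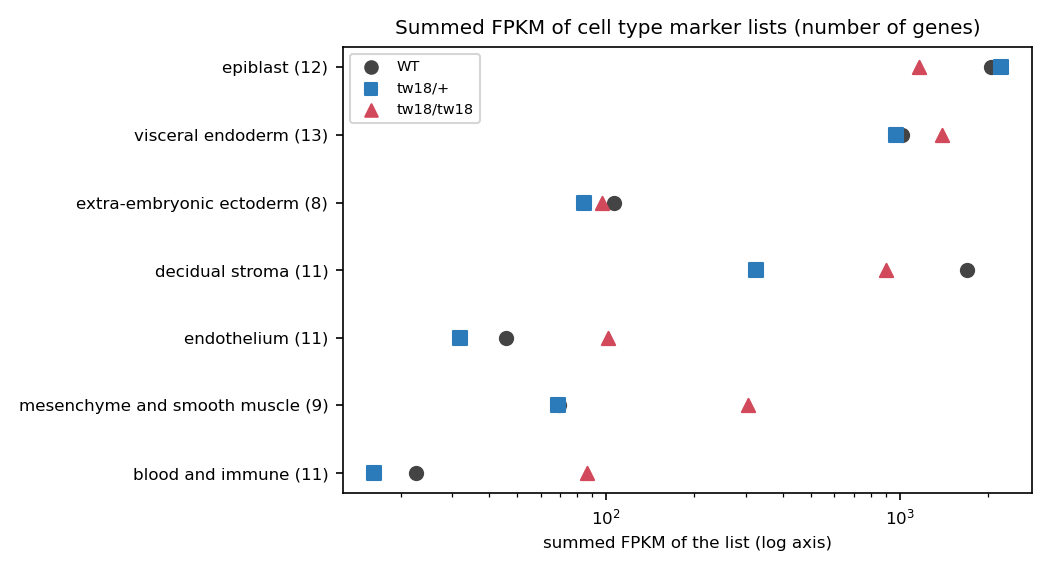
Summed FPKM (log axis) of 7 marker lists in the 3 libraries, with the number of genes in each list. Mesenchyme and smooth muscle, blood and immune, and endothelial lists were highest in tw18/tw18 (303.5, 86.34 and 101.9), the epiblast list was lowest there (1167), and the decidual list was lowest in tw18/+ (324.6), with *Prl8a2* included; its other 10 genes were highest in tw18/tw18 (524.7).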

How the data were processed

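RNA was measured by strand-specific RNA-seq of total RNA in 3 libraries, 1 for each genotype, grouped by the genotype label. The authors mapped paired-end reads to mm10 (GRCm38) and deposited 1 table of FPKM values of 23421 genes, calculated with Cuffdiff. The submitters' processing notes name Bowtie 1.0.0 and Cufflinks 2.2.1. The gene annotation, library normalization and strand setting given to Cuffdiff are not given in the sources used here. FPKM is relative to the rest of the library, so an abundant gene lowers the others.

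From this table log2 ratios without a pseudocount were computed in Python 3.11.15 (pandas 2.3.3, numpy 2.4.6, scipy 1.17.1), and calls needed a log2 ratio of 1 and a higher value of at least 1 FPKM. Depth was estimated from the spacing of scaled values up to 0.2 of genes with a single transcript longer than 1000 bases, with a fragment allowance of 150 bases. Fragments of PCR are not independent molecules. Positions and transcripts came from GENCODE M21 (GRCm38) and promoters from RefSeq (GRCm38.p6). Both are the reference sequence and not that of 129/SvEv or the *t* haplotype. The calling rule was tried on simulated data with counting error only and large changes set in well-covered genes. That trial did not cover changes in low genes, changes near 2-fold or differences between embryos. All 40 members are named, and of the other pathway genes the called ones by size of ratio, not all of them with values. Members, lists and motifs were chosen with earlier results of these data known. Alternatives were a pseudocount of 1, other minimum levels, a log2 threshold of 2, centring on the median ratio and equal FPKM sums.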

Additional observations from a re-analysis of the deposited data

How the results depend on the processing

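With a log2 threshold of 2, the members called between tw18/tw18 and WT fell to 5, all higher (*Bmp6*, *Bmp8b*, *Tgfb3*, *Acvrl1* and *Eng*). Of all genes, 5.76% were then called higher and 2.28% lower. Between tw18/tw18 and tw18/+ the members called fell to 6, with 5 higher and 1 lower (*Bmpr1b*), against 4.75% and 1.52% of all genes. Between tw18/+ and WT they fell to 0. The other pathway genes called fell to 9, 6 and 3 in these pairs. Between tw18/+ and WT, members called were 1 with a pseudocount of 1, 8 with no minimum level, 3 with a minimum of 2 FPKM, and 3 with a mean of at least 1 FPKM, an alternative chosen after seeing the data, while other pathway genes called were 5 with the pseudocount and 23 with no minimum. Of the calls, 10 of 15 between tw18/tw18 and WT, 14 of 16 between tw18/tw18 and tw18/+, and 1 of 5 between tw18/+ and WT (*Inhba*) held under each of 4 settings of scale and pseudocount, and the calls of *Bmp4*, *Bmp6*, *Tgfb2*, *Smad9* and *Nog* against WT were lost with a pseudocount of 1, which shrinks ratios of low genes. Equal FPKM sums raised the log2 ratios of tw18/tw18 by 0.21 against WT and 0.25 against tw18/+ and gave 16 and 23 calls. The shares of all genes rose as well, to 19.3% and 19.8% called higher, with 4.89% and 3.67% called lower. No paired analysis was possible because each genotype has 1 library. With 1 library a genotype, the spread between embryos is unknown, and for members under 1 FPKM the number of fragments limits the ratio.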

Other observations

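Levels of a ligand and its antagonist or partner were also set side by side within each library, as ratios of FPKM chosen after the values were seen. *Fst* stood at 7.36 times the *Inhba* level in WT, 17.8 times in tw18/+ and 12.0 times in tw18/tw18, the highest ratio in tw18/+ coming with the lowest *Inhba* level. *Bmp2* stood at 5.81, 9.17 and 5.36 times the level of *Bmp4*, so that the 2 ligands kept a similar ratio in WT and tw18/tw18. *Smad4* stood at 39.6, 25.9 and 12.9 times the level of *Smad9*. None of these ratios has a replicate check.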
